A study of Mus musculus with 26 samples.

Results

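The abdominal aorta of C57BL6/J mice was compared between what a lysis buffer pushed through the lumen carried out 3 h after wounding and what stayed behind in the vessel wall. The flush group held 5 libraries from wounded abdominal segments at 3 h, and the wall group held 3 libraries of homogenized abdominal aorta that had already been flushed, taken at 48 h. These 8 libraries were chosen of 26 by their column names and sample labels. The labels describe wounding by mechanical pressure for every sample, a guanidine lysis buffer (RLT) for the flush, total RNA, and a library kit made for low RNA input. The other 18 libraries, used for context, were 9 abdominal flushes at 48 h after injury and 9 flushes of the unwounded thoracic aorta of the same 9 mice. The 3 wall libraries came from 3 of those 9 mice, and their label for the segment holds no entry. The 5 mice of the 3 h group appear in no other group. The fraction (lumen or wall), the time after injury (3 h or 48 h) and the mice therefore differ together and cannot be told apart. The deposited column names give the early group a time of 0 h, whereas its labels give 3 h, which is the time used here. The labels state neither age nor sex.

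The inner face of an artery is a single layer of endothelial cells, which keeps blood fluid, senses flow and controls the entry of leukocytes. Beneath it lie layers of smooth muscle cells between elastic sheets, which contract under calcium and myosin light chain kinase, and an outer coat of fibroblasts, collagen, nerves and fat. Pressure on the vessel removes endothelial cells, and the cells at the edge switch on immediate early transcription factors and adhesion molecules before they migrate and divide.

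Library totals ran from 2657169 to 4346847 counts in the flush and from 13853003 to 15560008 in the wall, so the wall was counted more deeply. Between 11257 and 12369 gene symbols had at least 1 count in a flush library, against 14807 to 14948 in a wall library and 13573 to 13697 once the wall libraries were thinned to 3388459 counts. Transcripts encoded by mitochondrial DNA took 4.11 to 6.76% of flush counts and 10.7 to 11.3% of wall counts. Correlations of log2 CPM between libraries of a group ran from 0.937 to 0.972 in the flush and from 0.993 to 0.994 in the wall. Values are CPM, counts relative to the scaled library total, given for the flush in the order C1A, C1B, C2A, C2C and C3B and for the wall in the order E1A, E2A and E3A, after the mouse names in the labels.

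Of 13884 genes tested, 3256 (23.5%) were higher and 2669 (19.2%) lower in the 3 h flush than in the wall, at a Benjamini-Hochberg adjusted p under 0.05 in edgeR's quasi-likelihood test. A further 7959 genes did not pass. Among the called genes, 2445 were at least 2-fold higher and 2030 at least 2-fold lower, and 1390 and 1343 were at least 8-fold apart. The median log2 fold change over all tested genes was -0.02. Every flush library lay above every wall library for 2987 genes (21.5%) and below every wall library for 4024 genes (29.0%). Of these, 2531 were called higher and 2593 lower. The flush was counted less deeply, and the part of depth in these 2 non-overlap counts was not tested. The authors' deposited table of the same comparison listed 3065 genes higher and 3260 lower at an adjusted p under 0.05. Of those in the authors' deposited table, 2893 and 2421 were called on the same side here, and 0 on the opposite side. Tests within a single experimental batch called 550 to 1155 genes per direction, with 0 on the opposite side. The 42 gene lists held 797 entries, of which 723 passed the filter on low counts. Every list count against the wall stands beside the shares over all tested genes, 23.5% higher and 19.2% lower. Because these are bulk samples, fewer cells of a type and less RNA per cell cannot be told apart.

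**Figure D1:**
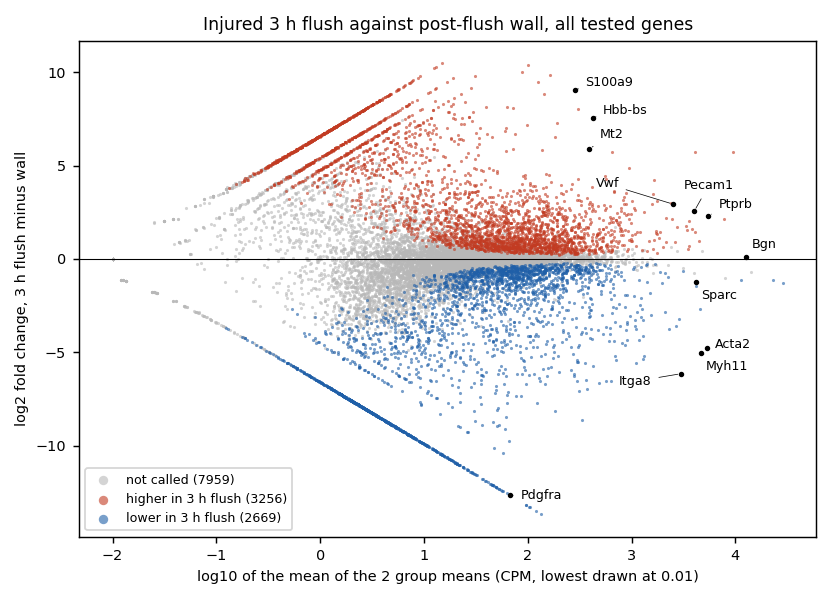
Each point is 1 of 13884 tested genes, with the log10 of the mean of both group means in CPM on the x axis and the log2 fold change of the 3 h flush against the wall on the y axis. Red points (3256) were higher and blue points (2669) lower in the flush, and grey points (7959) did not pass. Points on the slanting edges are genes with 0 counts in 1 of the groups.

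Endothelial genes were higher in the flush. Of 29 tested endothelial markers, 26 were higher in the 3 h flush, 0 were lower and 3 did not pass, with a median log2 fold change of 2.40 against -0.02 over all tested genes. Higher members numbered 22, 24 and 22 within experimental batches 1, 2 and 3. Summed over the list, the markers made up 27974 to 33088 CPM in the flush and 4422 to 7284 CPM in the wall. Pecam1, a junction molecule of endothelial cells and platelets, stood at 6704, 7002, 7317, 6872 and 6285 CPM in the flush and 1343, 802 and 1373 CPM in the wall. Vwf, the clotting protein that endothelial cells store and release, stood at 3555, 4550.3, 3979, 5059.8 and 5214 CPM in the flush and 708, 449 and 602 CPM in the wall. Cdh5, the cadherin of endothelial junctions, stood at 1765, 1904, 1716, 1817 and 1938 CPM in the flush and 256, 169 and 211 CPM in the wall. In none of the 3 did the groups overlap, and the lowest flush library lay several times above the highest wall library. The test gave log2 fold change 2.54 ± 0.18 (SE), adjusted p = 3.33e-11 for Pecam1. It gave 2.93 ± 0.19 for Vwf and 3.11 ± 0.18 for Cdh5 (adjusted p = 7.94e-12 and 8.63e-13). Ecscr, a small membrane protein of endothelial cells, had the smallest p of the list (10.2-fold higher, adjusted p = 4.37e-13), and Esam, a junction adhesion molecule, was 5.79-fold higher. The wall still held 1173 CPM of Pecam1, 586 CPM of Vwf and 1815 CPM of Ptprb, the endothelial receptor phosphatase.

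The 3 endothelial markers that did not pass were Robo4 at 8.57 against 2.36 CPM, Kdr, the main receptor for VEGF, at 12.7 against 9.39 CPM, and Calcrl, a subunit of the adrenomedullin receptor, at 244 against 298 CPM (flush first, adjusted p = 0.233, 0.562 and 0.352). Among the most abundant genes at least 4-fold higher in the flush, Heg1, a cardiovascular junction protein, stood at 9361, 14593, 14656, 13780.2 and 10639 CPM in the flush and 3459, 2317 and 2748 CPM in the wall. Epas1, the hypoxia-inducible factor of endothelium, averaged 5710.1 ± 407 CPM in the flush and 1415 ± 411 CPM in the wall, and Ece1, which makes endothelin, averaged 3993 ± 326 CPM in the flush and 889.7 ± 148 CPM in the wall. Cytl1, a secreted cytokine-like protein, was 7.98-fold and Clu, an extracellular chaperone, 4.56-fold higher. Emp1, a membrane protein of the PMP22 family, averaged 3154 ± 1453 CPM in the flush and 168 ± 27.7 CPM in the wall and had the largest fold change of the 10 most abundant genes named by rule (log2 fold change 4.23 ± 0.47 (SE), adjusted p = 7.47e-08).

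Genes that flow maintains in endothelium were higher as well, 12 of 16 tested, with 0 lower. S1pr1, the sphingosine-1-phosphate receptor that keeps junctions closed, stood at 1322, 914, 860.0, 1103 and 1126 CPM in the flush and 78.0, 37.6 and 33.9 CPM in the wall. The groups were far apart (log2 fold change 4.42 ± 0.35 (SE), adjusted p = 2.61e-10). Sox17, an arterial transcription factor, was 8.23-fold higher, and the gap junction proteins Gja4 and Gja5 were 8.63-fold and 7.62-fold higher. Efnb2 (451 against 339 CPM), Dll4 (12.4 against 3.27 CPM), Hey1 (4.33 against 11.95 CPM) and Hey2 (125 against 129 CPM), which take part in arterial Notch and ephrin signalling, did not pass. In the wider VEGF, angiopoietin and Notch list, 11 of 25 members were higher and 4 lower. Tek and Tie1, the angiopoietin receptors of endothelium, were 4.38-fold and 5.60-fold higher in the flush, Notch1 and Notch4 were 6.67-fold and 4.801-fold higher, and Heyl, a Notch target of mural cells, stood at 2.54, 26.9, 16.6, 26.4 and 6.07 CPM in the flush and 639, 954 and 941 CPM in the wall. Notch3, the smooth muscle Notch receptor, had 0 counts in all 5 flush libraries and averaged 29.7 CPM in the wall, at least 152-fold lower in the flush by a floor of 3 counts over the group (adjusted p = 0.00314).

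Of 17 genes of coagulation and fibrinolysis, 10 were higher and 3 lower in the flush. Thbd, thrombomodulin, which turns thrombin into an anticoagulant, stood at 2675, 2305, 2455, 1725 and 2125 CPM in the flush and 544, 394 and 268 CPM in the wall and was 5.61-fold higher. The thrombin receptor F2r was 2.01-fold and S100a10, a plasminogen-binding partner of annexin A2, 3.83-fold higher. The 3 lower members were F3, tissue factor, at 3.38, 0, 0, 0 and 0 CPM in the flush and 95.2, 111 and 168 CPM in the wall, Serpine2, a thrombin inhibitor, at 12.9 against 586 CPM, and Tfpi, the inhibitor of tissue factor, at 29.4 against 50.4 CPM. Serpine2 was 45.6-fold lower.

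Smooth muscle genes were lower. Of 24 tested markers 22 were lower in the 3 h flush and 0 higher, with a median log2 fold change of -4.06. Lower members numbered 18, 20 and 19 within experimental batches 1, 2 and 3. The list summed to 3625 to 4174 CPM in the flush and 52131 to 56592 CPM in the wall, so its transcripts were low but present in the flush. Acta2, smooth muscle actin, stood at 411, 364, 394, 382 and 334 CPM in the flush and 11941, 10148 and 8602 CPM in the wall. Myh11, the smooth muscle myosin heavy chain, stood at 401, 293, 197, 323 and 168 CPM in the flush and 8085, 9283 and 9651 CPM in the wall. Itga8, an integrin subunit of contractile cells, stood at 93.9, 93.4, 76.9, 105.28 and 51.4 CPM in the flush and 5401, 6919 and 5541 CPM in the wall. In each case every wall library lay more than 10-fold above every flush library. The test gave -4.76 ± 0.59 for Acta2, -5.03 ± 0.43 for Myh11 and -6.15 ± 0.52 for Itga8 (adjusted p = 4.17e-07, 8.23e-10 and 7.65e-10).

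Not all contractile genes differed to the same degree. Cald1, caldesmon, was 6.37-fold lower (1234 ± 203 CPM in the flush and 7862 ± 836 CPM in the wall), Tpm1, a tropomyosin, 5.43-fold, Flna, filamin A, 7.24-fold, Csrp1, a cytoskeletal LIM protein, 6.04-fold and Mylk, myosin light chain kinase, 9.68-fold lower. Cnn1, calponin, stood at 18.2, 13.4, 7.19, 16.8 and 12.4 CPM in the flush and 601, 585 and 569.6 CPM in the wall, 43.3-fold lower, and Des, desmin, had a mean of 0.0846 CPM in the flush and 28.8 CPM in the wall. Lpp, a partner of zyxin abundant in smooth muscle, was 9.38-fold lower, Synpo2, an actin-bundling protein, 13.7-fold, and Map1b, a microtubule-associated protein, 12.1-fold lower. Sncg and Pln were the 2 members that did not pass (11.3 against 3.98 CPM and 4.62 against 4.75 CPM).

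Serum response factor, with its partner myocardin, switches on contractile genes through the CArG box. Myocd, myocardin itself, stood at 13.1, 11.6, 6.25, 6.51 and 6.83 CPM in the flush and 386, 359 and 287 CPM in the wall, 39.0-fold lower in the flush (adjusted p = 1.06e-06). The promoter windows of Acta2 (chr19:34255324-34255623, minus strand) and Myl9 (chr2:156775214-156775513, plus strand) are printed here, 5′ to 3′, as examples from the smooth muscle list. Most of that list was lower in the flush, and a link of these genes to Myocd was not tested. Myl9, the regulatory light chain that the kinase acts on, averaged 68.6 ± 12.6 CPM in the flush and 1558 ± 77.1 CPM in the wall. The windows run from 250 bases before to 50 bases after the annotated start (RefSeq, GRCm38.p6), and capitals mark matches on either strand to a CArG box with at most 1 G or C among its inner 6 bases.
Acta2: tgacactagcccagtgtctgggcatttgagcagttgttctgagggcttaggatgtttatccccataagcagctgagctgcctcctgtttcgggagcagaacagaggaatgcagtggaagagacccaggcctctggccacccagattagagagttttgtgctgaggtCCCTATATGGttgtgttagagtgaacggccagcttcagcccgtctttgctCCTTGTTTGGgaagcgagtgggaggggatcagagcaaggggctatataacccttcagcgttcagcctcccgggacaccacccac
Myl9: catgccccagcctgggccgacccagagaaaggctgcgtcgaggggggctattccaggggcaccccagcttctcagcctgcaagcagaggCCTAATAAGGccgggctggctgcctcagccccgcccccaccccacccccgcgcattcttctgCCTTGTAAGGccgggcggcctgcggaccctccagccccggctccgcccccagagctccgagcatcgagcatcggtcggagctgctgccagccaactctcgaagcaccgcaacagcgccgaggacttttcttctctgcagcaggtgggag
Each window held 2 matches. Such a match was present in 4 of 20 smooth muscle markers with a window and in 9.98% of all 32851 windows, and a CArG box with no G or C inside in 2 of 20 and 1.63%. A match is a description of these letters and not a measured binding site.

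Genes that set the tone of smooth muscle were lower too, 17 of 24 tested with 1 higher and a median log2 fold change of -4.27. Atp2a2, the calcium pump of the sarcoplasmic reticulum, averaged 368 ± 18.8 CPM in the flush and 1422 ± 157 CPM in the wall. Gucy1a3 and Gucy1b3, the subunits of the nitric oxide receptor, were 24.4-fold and 21.9-fold lower. Abcc9, a subunit of ATP-sensitive potassium channels, stood at 28.8, 27.2, 20.3, 67.8 and 15.9 CPM in the flush and 1257, 1522 and 1349 CPM in the wall. Kcnma1, the pore of the large calcium-activated potassium channel, was 20.8-fold lower. Rgs5, a brake on G-protein signalling in mural cells, stood at 493, 454, 279, 365 and 111 CPM in the flush and 2604, 3195 and 2476 CPM in the wall. Its flush values spread more than 4-fold but stayed below every wall library (log2 fold change -3.02 ± 0.56 (SE), adjusted p = 1.14e-04). A further 6 members did not pass, among them Pde3a, a cyclic nucleotide phosphodiesterase, at 1195 against 1321 CPM, and Ednra, the endothelin A receptor, at 13.03 against 29.2 CPM. Trpc6, a cation channel, was the only member of this list that was higher, from 0 counts in the wall to 2.08 CPM.

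**Figure D2:**
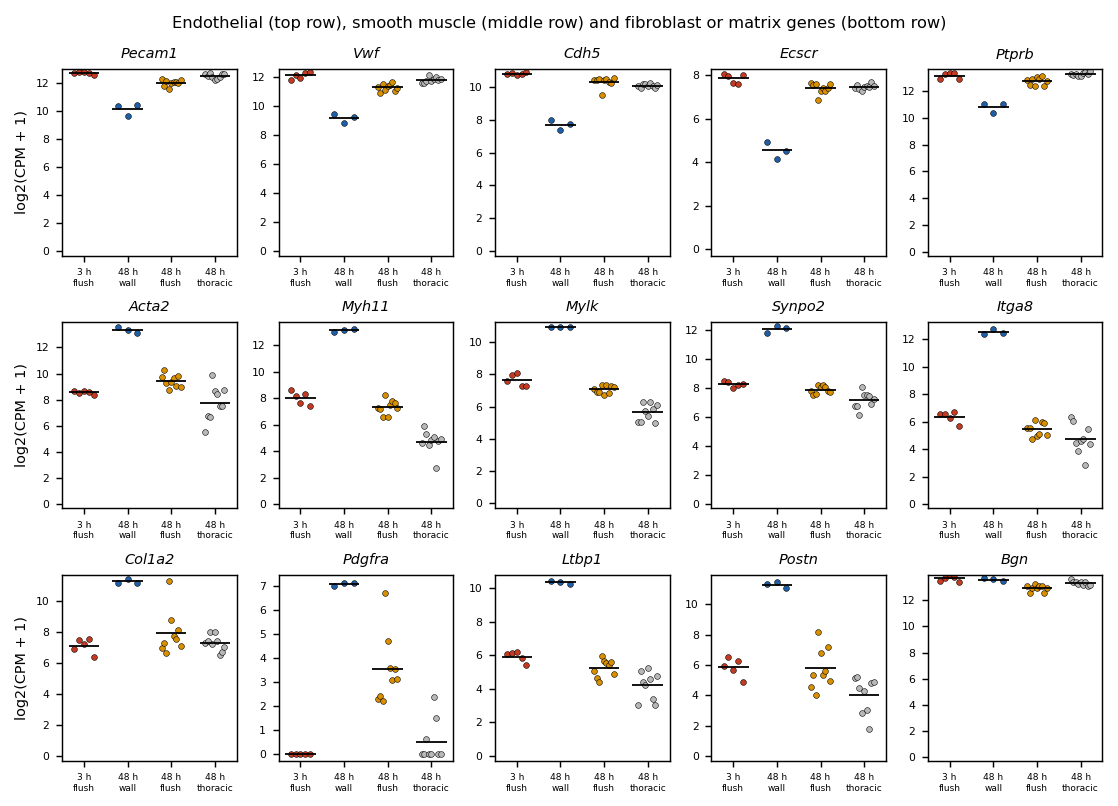
Points are single libraries, as log2(CPM + 1), and the line is the group mean. Columns are the 3 h flush (5), the 48 h wall (3), the injured 48 h flush (9) and the unwounded thoracic flush at 48 h (9). In the top row the 3 h flush lies above the wall, in the middle row below it, and in the bottom row Bgn overlaps while Col1a2, Pdgfra, Ltbp1 and Postn lie below the wall in the 3 h flush.

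All 14 tested fibroblast markers were lower in the 3 h flush (median log2 fold change -3.77). Lower members numbered 8, 6 and 6 within experimental batches 1, 2 and 3. Pdgfra, the receptor that marks adventitial fibroblasts, had 0 counts in all 5 flush libraries and stood at 128, 138 and 139 CPM in the wall, at least 689.7-fold lower in the flush. Gsn, an actin-severing protein, was 6.54-fold lower. Lum, a small proteoglycan that spaces collagen fibrils, averaged 4.85 ± 3.39 CPM in the flush and 116 ± 27.9 CPM in the wall. Mfap5, a microfibril protein, was the least different (224 against 434 CPM, log2 fold change -0.96 ± 0.19 (SE), adjusted p = 3.12e-04).

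Of 17 collagen genes 13 were lower and 1 higher in the flush. Col1a2, a chain of fibrillar collagen I, stood at 117, 174, 146, 182 and 83.2 CPM in the flush and 2287, 2736 and 2285 CPM in the wall, and Col14a1, which binds fibrils, was 8.18-fold lower. Col18a1 and Col5a1 were 9.48-fold and 6.43-fold lower. Col8a1, a short-chain collagen made by endothelium and by smooth muscle, went the other way and stood at 392, 383, 332, 646 and 655 CPM in the flush and 46.0, 27.6 and 32.4 CPM in the wall. It was 13.6-fold higher with no overlap (log2 fold change 3.77 ± 0.45 (SE), adjusted p = 2.84e-07). The basement membrane chain Col4a1 (381 against 444 CPM), Col5a2 (250.4 against 253 CPM) and Col6a3 (74.2 against 187 CPM) did not pass.

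Of 16 elastic fibre genes 3 were higher, 8 lower and 5 not called, against 23.5% higher and 19.2% lower over all tested genes. Without flush library C1A 5 were higher. Eln, tropoelastin, averaged 2925 ± 856 CPM in the flush and 1857 ± 837 CPM in the wall (adjusted p = 0.0882), and its crosslinking enzyme Lox averaged 699 ± 88.8 CPM in the flush and 531 ± 158 CPM in the wall (adjusted p = 0.091). Fbln2, a fibulin, stood at 868, 1418, 1161, 817 and 781 CPM in the flush and 294, 212 and 271 CPM in the wall and Ltbp4, a TGF-beta binding protein, averaged 2754 ± 549 CPM in the flush and 1025 ± 69.9 CPM in the wall. Both were higher in every flush library than in any wall library. Ltbp1, a second TGF-beta binding protein, stood at 65.6, 68.4, 73.2, 55.1 and 41.0 CPM in the flush and 1379, 1311 and 1201 CPM in the wall, 21.4-fold lower. Mfap4 was 100.01-fold lower, and Loxl1, a lysyl oxidase relative, averaged 0.0625 CPM in the flush and 94.9 CPM in the wall.

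Proteoglycans and matricellular proteins were mostly lower, 18 of 23 against 3 higher. Prelp, a proteoglycan of connective tissue, stood at 80.4, 95.0, 78.5, 60.5 and 31.9 CPM in the flush and 2215, 3051 and 2390.4 CPM in the wall. Postn, periostin, stood at 60.5, 89.7, 50.7, 75.4 and 28.1 CPM in the flush and 2617, 2817 and 2114 CPM in the wall, and Ogn, osteoglycin, was 47.3-fold lower. Thbs2, an antiangiogenic thrombospondin, averaged 1.32 ± 1.84 CPM in the flush and 102 ± 17.5 CPM in the wall. Sparc, abundant in both groups, was 2.34-fold lower. Bgn, biglycan, was among the most abundant transcripts of both groups and stood at 11679.9, 13736, 15311, 14008 and 11122 CPM in the flush and 13079.8, 12626 and 11336 CPM in the wall. Its groups overlapped (log2 fold change 0.09 ± 0.16 (SE), adjusted p = 0.669). The 3 higher members were Mgp, an inhibitor of vascular calcification (6042 against 2204 CPM), Fn1, fibronectin (4447 against 2723 CPM), and Spp1, osteopontin (7.35 against 0.581 CPM). Without flush library C1B or wall library E3A, 1 member was higher.

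Of 14 basement membrane genes 7 were lower and 2 higher. Lama4 (5.19-fold) and Lama2 (0.188 against 104.53 CPM), laminin alpha chains of vessels and of muscle, were lower, while Lama3 (7.83-fold) and Lama5 (3.07-fold) were higher. Hspg2, perlecan, and Nid1, nidogen, did not pass (657 against 620.4 CPM and 416 against 411 CPM). Among 21 integrins and adhesion proteins 12 were lower and 6 higher. Besides Itga8, Itgb5 was 8.16-fold lower, and Tns1, a tensin, 2.75-fold lower. Itgb4, a laminin-binding beta chain, stood at 214, 306, 249.6, 233 and 199.6 CPM in the flush and 66.0, 22.1 and 38.9 CPM in the wall, 5.68-fold higher. Itgb1, the shared beta chain, averaged 1319 ± 98.8 CPM in the flush and 1484 ± 133 CPM in the wall and did not pass (adjusted p = 0.286).

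Growth factor signalling had 6 of 25 members higher and 11 lower, against 23.5% and 19.2% over all tested genes. Acvrl1, the endothelial BMP9 receptor, was 4.93-fold higher and Bmpr2, a type II BMP receptor, 1.90-fold higher. Tgfbr1, the type I TGF-beta receptor, was 3.202-fold lower and Tgfb3 26.2-fold lower. Pdgfrb, the PDGF receptor of mural cells, stood at 25.0, 36.6, 29.7, 1.53 and 20.999 CPM in the flush and 176, 239.8 and 272 CPM in the wall. Its ligand Pdgfb, made by endothelium, did not pass (21.997 against 9.31 CPM), nor did Tgfbr2 (215 against 233 CPM) or Pdgfa (110.0 against 109 CPM).

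**Figure D3:**
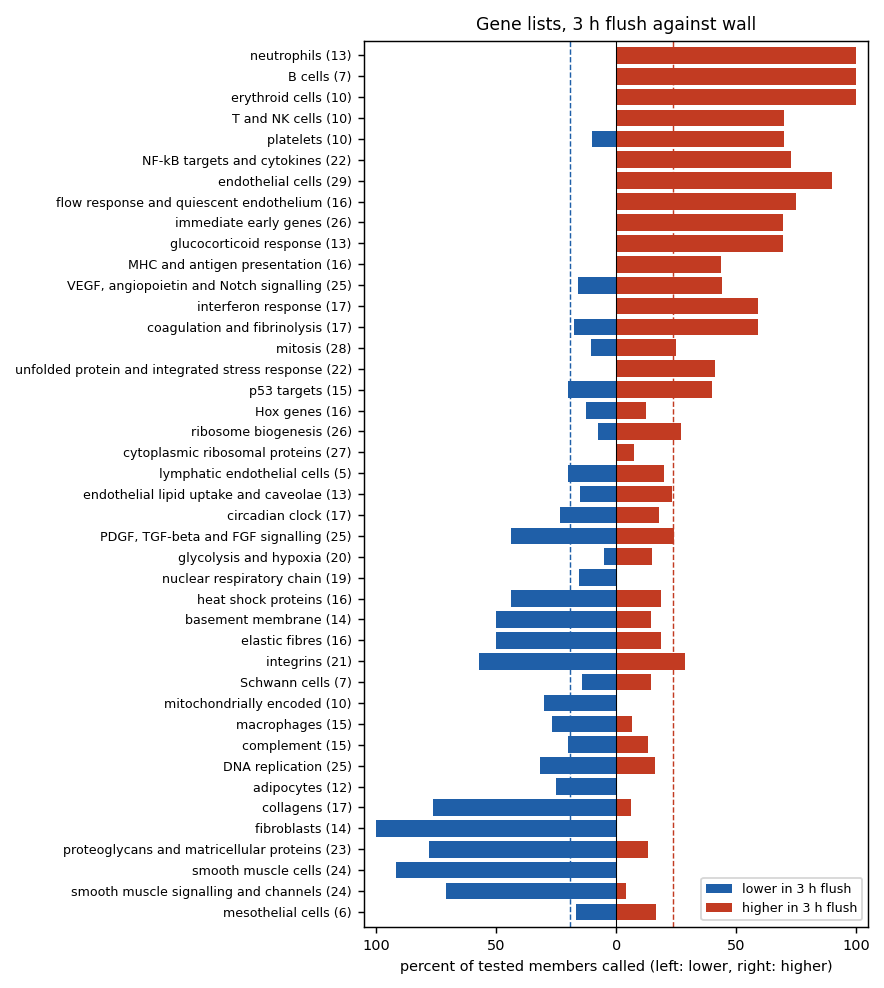
Bars give the percent of tested members of each gene list that were higher (red, right) or lower (blue, left) in the 3 h flush than in the wall, ordered by median log2 fold change, with the number tested in brackets. Dashed lines mark the shares over all tested genes, 23.5% higher and 19.2% lower. Members of the neutrophil, B cell and T and NK cell lists passed the filter on low counts largely through the flush groups.

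Early response genes were higher in the 3 h flush. Of 26 immediate early genes 18 were higher, 0 lower and 8 not called, with a median log2 fold change of 1.62. The batches taken singly (1, 2 and 3) gave 5, 5 and 6 higher. Fosl2, a member of the AP-1 family, stood at 556, 496, 337, 393 and 567 CPM in the flush and 205, 138 and 83.6 CPM in the wall. Zfp36, which destabilises cytokine mRNAs, stood at 645, 329.6, 461, 454 and 574 CPM in the flush and 133, 176 and 102 CPM in the wall. Klf2 and Klf4, flow-responsive factors that are also early genes, were 7.98-fold and 5.24-fold higher, and Jun was 1.96-fold higher. Fosl2 did not overlap between the groups (log2 fold change 1.73 ± 0.28 (SE), adjusted p = 2.55e-05). Members that did not pass included Nr4a1 (59.8 against 30.4 CPM), Egr3 (8.34 against 1.15 CPM) and Jund (8.88 against 13.6 CPM). The wall was taken at 48 h, so the time after injury moves with the fraction in each of these counts.

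NF-kB targets and cytokines gave 16 of 22 higher and 0 lower (median 2.52). The batches taken singly (1, 2 and 3) gave 11, 10 and 11 higher. Vcam1, the adhesion molecule that arrests monocytes, stood at 4324, 3538, 3282, 1412 and 3165 CPM in the flush and 491, 294 and 309.8 CPM in the wall. Icam1, the ligand of leukocyte beta-2 integrins, stood at 245, 449, 401, 243 and 289 CPM in the flush and 60.4, 37.1 and 53.5 CPM in the wall, and Selp, P-selectin, at 1993, 1353, 886, 675 and 1328 CPM in the flush and 132, 84.5 and 99.4 CPM in the wall. In all 3 every flush library was above every wall library, with log2 fold changes of 3.11 ± 0.29, 2.69 ± 0.20 and 3.56 ± 0.34 (adjusted p = 3.20e-09, 5.70e-11 and 6.93e-09). Nfkbiz, a nuclear co-regulator of NF-kB, was 6.06-fold and Birc3, an inhibitor of cell death, 3.00-fold higher. Nfkbia, the inhibitor that NF-kB itself induces, was 5.40-fold higher (75.4 ± 19.2 CPM in the flush and 13.9 ± 3.03 CPM in the wall). The chemokines Ccl2 (10.98 against 3.24 CPM), Ccl7 (6.39 against 1.96 CPM) and Cxcl10 (4.00 against 1.32 CPM) did not pass.

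Nfkbia is known as a direct target of NF-kB, and its promoter window is printed for that reason, 5′ to 3′ (chr12:55492598-55492897, minus strand, RefSeq, GRCm38.p6). Capitals mark a match on either strand to GGGRNNYYCC, a pattern of NF-kB sites, where R is A or G, Y is C or T and N is any base.
Nfkbia: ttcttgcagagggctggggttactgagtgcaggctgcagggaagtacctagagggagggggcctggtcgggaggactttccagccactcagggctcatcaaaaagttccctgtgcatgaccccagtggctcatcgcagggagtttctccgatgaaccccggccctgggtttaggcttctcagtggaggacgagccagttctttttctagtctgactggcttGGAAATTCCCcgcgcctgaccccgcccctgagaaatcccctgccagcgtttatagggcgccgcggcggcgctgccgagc
Such a match was found once here, on the reverse strand, in 9 of the 16 list members with a window, and in 8.46% of all 32851 windows. Neither this match nor the matches to the metal response core below are measured binding sites.

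Genes induced by glucocorticoids gave 9 of 13 higher and 0 lower (median 1.59). The batches taken singly (1, 2 and 3) gave 3, 4 and 5 higher. Mt1 and Mt2, metallothioneins that bind zinc and are induced by metals, glucocorticoids and stress, led the list. Mt2 stood at 1198, 664, 579, 407 and 1001 CPM in the flush and 11.8, 15.4 and 11.6 CPM in the wall. Mt1 stood at 563, 431, 360.0, 299.8 and 494 CPM in the flush and 25.3, 40.5 and 37.9 CPM in the wall. The groups did not overlap, 59.4-fold for Mt2 (log2 fold change 5.89 ± 0.71 (SE), adjusted p = 2.92e-07) and 12.4-fold for Mt1 (log2 fold change 3.63 ± 0.42 (SE), adjusted p = 1.38e-07). Tsc22d3, a glucocorticoid-induced leucine zipper, averaged 280.4 ± 51.3 CPM in the flush and 26.8 ± 15.4 CPM in the wall, Sgk1, a kinase of ion transport, 236 ± 49.5 CPM in the flush and 78.3 ± 13.9 CPM in the wall, and Ddit4, an inhibitor of mTOR, 42.3 ± 23.5 CPM in the flush and 2.62 ± 0.778 CPM in the wall. Klf9 (194 against 158 CPM), Errfi1 (398 against 172 CPM), Zbtb16 (105.22 against 44.1 CPM) and Pdk4 (86.9 against 34.4 CPM) did not pass against the wall.

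The promoter windows of Mt1 (chr8:94178839-94179138, plus strand) and Mt2 (chr8:94172368-94172667, plus strand; RefSeq, GRCm38.p6) are printed because these 2 genes had the smallest p of the list. Capitals mark the metal response core, TGCACNC or TGCGCNC, on either strand, and matches may overlap.
Mt1: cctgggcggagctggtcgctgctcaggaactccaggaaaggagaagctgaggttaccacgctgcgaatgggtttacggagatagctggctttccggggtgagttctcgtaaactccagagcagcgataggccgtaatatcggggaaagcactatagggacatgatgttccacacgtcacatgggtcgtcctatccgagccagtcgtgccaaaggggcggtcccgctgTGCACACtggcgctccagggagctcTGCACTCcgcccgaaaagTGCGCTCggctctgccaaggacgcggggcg
Mt2: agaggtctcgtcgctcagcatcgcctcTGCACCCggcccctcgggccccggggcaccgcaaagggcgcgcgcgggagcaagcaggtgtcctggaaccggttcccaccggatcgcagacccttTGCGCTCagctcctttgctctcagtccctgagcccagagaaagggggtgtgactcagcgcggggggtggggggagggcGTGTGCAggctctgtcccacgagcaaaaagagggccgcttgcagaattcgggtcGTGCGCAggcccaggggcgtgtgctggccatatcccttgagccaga
The Mt1 window held 3 matches and the Mt2 window 4. At least 1 match was present in 6 of 12 list members with a window and in 25.7% of all 32851 windows.

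Other stress programmes were mixed, beside shares over all tested genes of 23.5% higher and 19.2% lower. Of 15 p53 targets 6 were higher and 3 lower. With RLE size factors 5 were lower. Cdkn1a, the p21 cell cycle inhibitor, stood at 268, 239, 333, 238 and 200.4 CPM in the flush and 49.7, 50.1 and 31.2 CPM in the wall, 5.85-fold higher without overlap, and Fas, the death receptor, was 4.45-fold higher. Ccng1, cyclin G1, was 3.46-fold lower. For the unfolded protein and integrated stress response 9 of 22 were higher and 0 lower, led by Ern1, the IRE1 sensor (3.92-fold), its target Xbp1 (2.39-fold) and Atf4 (2.46-fold). Of 20 glycolysis and hypoxia genes 3 were higher, namely Ndrg1 (5.26-fold), Pfkfb3, an activator of phosphofructokinase (4.43-fold), and Ldha (1.56-fold). Ldha did not pass without wall library E3A. Adm, adrenomedullin, was the 1 lower member, with 0 counts in the flush. In the fit of the 8 libraries alone 5 were higher and 6 lower. Of 16 heat shock genes 3 were higher and 7 lower. The small heat shock proteins of muscle, Hspb6, Hspb7 and Cryab, were 19.9-fold, 25.9-fold and 9.42-fold lower.

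**Figure D4:**
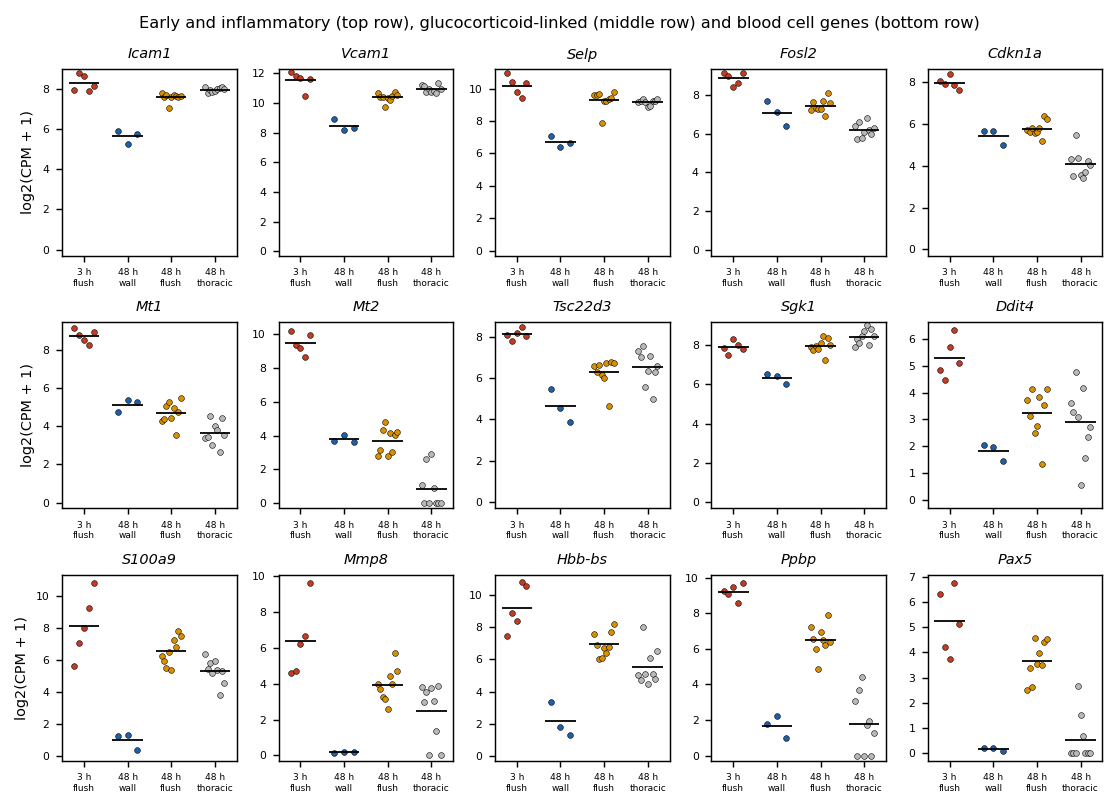
Points are single libraries, as log2(CPM + 1), and the line is the group mean, for the 3 h flush (5), the 48 h wall (3), the injured 48 h flush (9) and the unwounded thoracic flush at 48 h (9). In every panel the 5 flush libraries at 3 h lie above the 3 wall libraries. In the bottom row the 3 h libraries spread widely for the blood cell genes S100a9, Mmp8, Hbb-bs and Pax5, and less for Ppbp.

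Transcripts of circulating cells were higher in the flush and low in the wall. The neutrophil marker list summed to 196, 431, 825, 1888 and 5872 CPM in the flush and 7.55, 10.4 and 4.06 CPM in the wall. All 13 tested members were higher, with a median log2 fold change of 7.76. With wall values this low, members passed the filter on low counts largely through the flush groups. The number called higher was thus largely set by the filter and adds no support to the sums. S100a9, a calcium-binding protein of neutrophil granulocytes, stood at 48.7, 131, 255, 614 and 1813 CPM in the flush and 1.38, 1.45 and 0.301 CPM in the wall. Cxcr2, their chemokine receptor, stood at 12.7, 71.9, 125, 211 and 833 CPM in the flush and 0.325, 0.580 and 0.0752 CPM in the wall, and Mmp8, neutrophil collagenase, at 23.7, 25.3, 73.2, 101 and 782 CPM in the flush and 0.0811, 0.145 and 0.1504 CPM in the wall. Library C3B held the highest value of each, and C1A the lowest. Without C3B, 12 of the list were still called higher. The batches taken singly (1, 2 and 3) gave 6, 8 and 9 higher. Retnlg was 1025-fold and Il1r2, the decoy receptor of interleukin 1, 285-fold higher. Both folds rest on wall values near the floor, as the whole list summed to 4.06 to 10.4 CPM there. Library C3B, at 699.5 CPM of Retnlg, stood apart from the other flush libraries by 0.833 of the range.

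Of 10 erythroid genes 10 were higher. Hbb-bs, an adult beta globin that may share reads with its near-identical copy Hbb-bt, stood at 171, 474, 329, 1759 and 1478 CPM in the flush and 9.33, 2.46 and 1.504 CPM in the wall, and Alas2, the erythroid enzyme of haem synthesis, averaged 148 ± 127 CPM in the flush and 1.41 ± 0.505 CPM in the wall. Of 10 platelet genes 7 were higher and 1 lower. Ppbp, a platelet chemokine, stood at 615, 531, 695, 377 and 820.5 CPM in the flush and 2.35, 3.62 and 0.977 CPM in the wall, and Gp6, the platelet collagen receptor, had 0 counts in the wall and averaged 25.2 CPM in the flush, at least 330.1-fold higher. Pf4 (11.8 against 10.3 CPM) and Itgb3 (298 against 366 CPM) did not pass, and Gp1bb was lower (0.202 against 22.5 CPM). B cell markers summed to 30.3 to 310 CPM in the flush and 0.652 to 1.05 CPM in the wall. T and NK cell markers summed to 23.7 to 220 CPM in the flush and 2.03 to 4.64 CPM in the wall. Of the members that passed the filter on low counts, 7 of 7 and 7 of 10 were higher. Here too members passed largely through the flush groups, so these counts add no support to the sums. Pax5, the B cell factor, stood at 77.8, 17.8, 12.5, 107 and 33.6 CPM in the flush and 0.162, 0.145 and 0.0752 CPM in the wall. Cd3e, a subunit of the T cell receptor complex, stood at 133, 7.50, 20.95, 119 and 56.9 CPM in the flush and 1.136, 1.30 and 0.301 CPM in the wall. Cd4 (12.2 against 1.68 CPM), Gzma (2.59 against 0.324 CPM) and Klrb1c (0.777 against 0.123 CPM) did not pass.

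Of 15 macrophage markers 1 was higher, 4 lower and 10 not called (23.5% higher and 19.2% lower over all tested genes). In the fit of the 8 libraries alone 2 were higher and 7 lower. C1qc, a complement chain of tissue macrophages, averaged 0.459 CPM in the flush and 36.1 in the wall, and Mrc1, the mannose receptor, was 10.2-fold lower. Lyz2, lysozyme of the myeloid lineage, did not pass (299.8 ± 295 CPM in the flush and 296 ± 45.2 CPM in the wall). The list summed to 559 to 1362 CPM in the flush and 898 to 1027 CPM in the wall. Adipocyte markers summed to 183 to 413 and 778 to 1499 CPM, and 3 of 12 were lower. That count ran from 1 with DESeq2 to 6 in the fit of 8 libraries. Prox1, the defining factor of lymphatic endothelium, was low in both groups (2.69 against 4.85 CPM, flush first), and Msln, of mesothelium, had 0 counts in the flush (adjusted p = 0.0821). It was called lower by edgeR in the fit of the 8 libraries (adjusted p = 0.0018), with batch as a term (0.00821) and without the injured 48 h library E2A (0.00723), and not in the other alternatives. The mesothelial, lymphatic and Schwann cell lists each had 1 member higher and 1 lower. Lower mesothelial members numbered 3 in the fit of the 8 libraries, with batch as a term and without the injured 48 h library E2A, and 0 with DESeq2 or with any 1 of the 8 libraries left out. Lower Schwann cell members numbered 2 in the fit of the 8 libraries, with RLE size factors, with DESeq2 and without flush library C3B, and 3 without the injured 48 h library E2A. The share of blood cell transcripts differed among the flush libraries, and its part in the endothelial and inflammatory results was not tested.

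**Figure D5:**
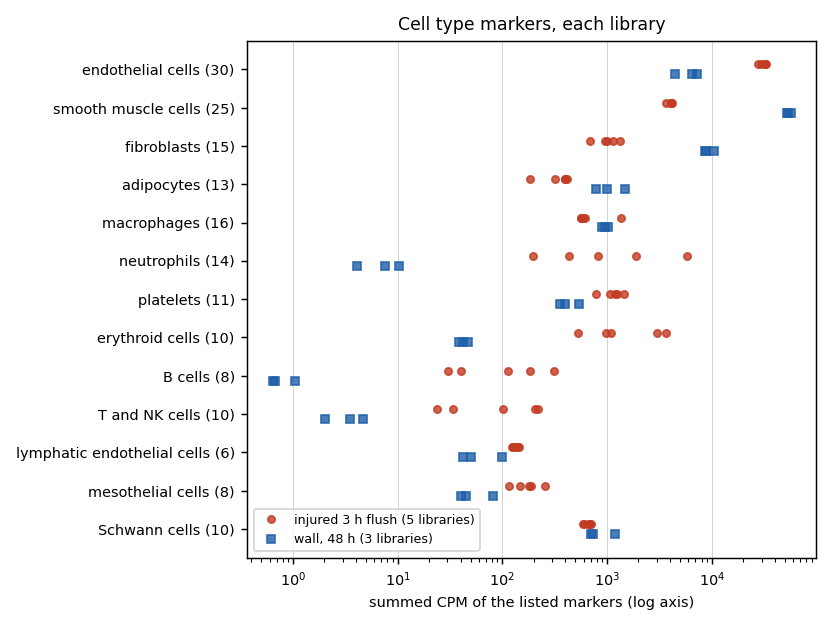
Each point is the summed CPM of a marker list in 1 library, on a log axis, with the number of listed genes found in brackets. Red circles are the 5 flush libraries at 3 h and blue squares the 3 wall libraries. Endothelial and blood cell sums lie to the right of the wall in the flush, and smooth muscle and fibroblast sums to the left.

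Antigen presentation and interferon genes were higher in the flush, 7 of 16 and 10 of 17 members, with 0 lower in either. H2-D1 and H2-K1, class I heavy chains whose reads may be shared between near-identical copies, were 5.50-fold and 6.03-fold higher. B2m, their light chain, stood at 4539, 5167, 4718, 5995 and 5216 CPM in the flush and 1959.9, 1830.5 and 1471 CPM in the wall. The class II genes Cd74 (266 against 110.2 CPM) and H2-Aa (84.8 against 32.0 CPM) did not pass. Stat2, which carries the interferon signal, was 3.75-fold higher, and Gbp2 and Oasl2, interferon-induced antiviral genes, 4.33-fold and 4.58-fold. Of 15 complement genes 2 were higher and 3 lower, against 23.5% and 19.2% over all tested genes. In the fit of 8 libraries 7 were lower. Serping1, the C1 inhibitor, was 6.03-fold and C7 9.01-fold lower.

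Cell cycle genes were low in both groups. Of 28 mitosis genes 7 were higher and 3 lower in the 3 h flush, and of 25 DNA replication genes 4 were higher and 8 lower (23.5% and 19.2% over all tested genes). Mki67, the proliferation antigen, averaged 34.3 ± 19.6 CPM in the flush and 6.07 ± 2.18 CPM in the wall. Top2a and Ccna2 did not pass (8.47 against 4.36 CPM and 6.62 against 5.90 CPM). Anln, anillin, was lower (9.32 against 124 CPM) and Aspm had 0 counts in the flush and 1.18 CPM in the wall. Fitted on the 8 libraries alone, 4 mitosis genes were higher and 1 lower, and 3 replication genes lower. Without flush library C2C or wall library E3A 4 mitosis genes were higher. Replication genes were higher in 2 without flush library C1B and in 1 without wall library E1A, E2A or E3A.

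Cytoplasmic ribosomal protein genes gave 2 of 27 higher and 0 lower, and nuclear genes of the respiratory chain 0 of 19 higher and 3 lower. Ribosome biogenesis gave 7 of 26 higher and 2 lower. The shares over all tested genes were 23.5% higher and 19.2% lower, for these lists and for the clock and Hox lists below. Mitochondrially encoded transcripts were lower in 3 of 10, and in 9 when only the 8 libraries were fitted. That number was 1 without flush library C1B or C2A or wall library E1A or E2A. Lower nuclear respiratory genes numbered 6 with RLE size factors. Ribosome biogenesis had 4 higher without wall library E1A or E2A, and ribosomal proteins 1 without E3A. The transcript mt-Co1, a subunit of cytochrome c oxidase, averaged 16667 ± 4008 CPM in the flush and 40771 ± 3280.4 CPM in the wall. Clock genes gave 3 higher and 4 lower of 17. Without wall library E2A 1 was higher. Bhlhe40, a repressor within the clock that many stimuli induce, was 7.62-fold higher, and Clock itself 3.04-fold lower. Of 13 genes of endothelial lipid uptake and caveolae 3 were higher, 2 lower and 8 not called, near the same shares (median log2 fold change -0.09). The higher members were the caveolin genes Cav1 (1.89-fold) and Cav2 (1.94-fold) and Sdpr, a cavin (5.32-fold). The lower members were Meox2 and Scarb1. Of 16 Hox genes 2 were higher, Hoxd8 and Hoxa9, and 2 lower, Hoxc10 and Hoxa2. Leaving out any 1 of the 8 libraries ended the call of Hoxc10, any 1 but C2A and E1A that of Hoxa2, and C2A, C3B, E1A, E2A or E3A that of Hoxa9. The abundant genes nearest to even, beside Bgn and Itgb1, were Rock2, a kinase of the actin cytoskeleton (1558 against 1588 CPM), Myadm (1548 against 1477 CPM), Wnk1 (1285 against 1242 CPM), Macf1 (1031 against 1167 CPM), Aplp2 (1081 against 937 CPM), Capns1 (1023 against 1041 CPM) and Hsp90ab1 (980.1 against 882 CPM).

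The largest falls by fitted value were genes with 0 counts in all 5 flush libraries, 719 of the 2669 called lower. Among the 1724 lower genes with a wall mean of at least 20 CPM, 119 had 0 counts in the flush. Arhgef17, a guanine nucleotide exchange factor, stood at 253, 270.2 and 288 CPM in the wall and was at least 1383-fold lower. Ank2, an ankyrin of muscle membranes, was at least 1228-fold lower, Mtus2 1065-fold, Clmp, an adhesion molecule, 1067-fold, and Unc5c, a netrin receptor, 980.2-fold. Gabra3, Htra3, Mmp17 and Plce1 were at least 985, 642, 597 and 585-fold lower. The depth of the flush sets these bounds, each from 3 counts over the 5 libraries.

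In the other direction 479 of 3256 genes had 0 counts in the wall, and 3 of the 1994 with a flush mean of at least 20 CPM. These 479 passed the filter on low counts through flush libraries alone. They included 127 of 440 tested olfactory receptor genes, 9 of 51 vomeronasal receptor genes and 30 of 218 predicted genes with a Gm number. Acsm2, an acyl-CoA synthetase of liver and kidney, stood at 44.0, 30.3, 25.0, 38.7 and 11.6 CPM in the flush, at least 367-fold higher. Olr1, the receptor for oxidised LDL, stood at 278, 534, 46.9, 28.7 and 738 CPM in the flush and 0.487, 0.507 and 0 CPM in the wall and spread more than 20-fold among the flush libraries. Treml2, of the TREM family, stood at 28.8, 17.8, 34.4, 47.5 and 62.7 CPM in the flush and 0.0811, 0 and 0 CPM in the wall, and Ms4a1, the B cell antigen CD20, at 33.0, 8.75, 9.38, 63.2 and 17.0 CPM in the flush and 0, 0.0724 and 0 CPM in the wall. Usp29, a ubiquitin protease, stood at 33.4, 14.4, 35.03, 32.9 and 11.4 CPM in the flush and 0, 0 and 0.0752 CPM in the wall. Acsm2 and Usp29 averaged 97.6 and 78.8 CPM in the unwounded thoracic flush.

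Set beside the other flushes, which share the 3 h libraries of the comparison with the wall, the 3 h flush had 1192 genes higher (8.59%) and 1347 lower (9.7%) than the injured 48 h flush. Against the unwounded thoracic flush 2230 were higher (16.1%) and 1535 lower (11.1%). With library totals as the only scaling, the counts against the injured 48 h flush became 553 higher and 2514 lower, and those against the thoracic flush, 1610.0 higher and 2340 lower. The comparison with the injured 48 h flush is also the test of whether the early and late flush differ from the wall by different amounts. Endothelial markers gave 12 of 29 higher and 2 lower against the injured 48 h flush, and smooth muscle markers 3 of 24 higher and 0 lower. Against the thoracic flush, endothelial markers gave 8 higher and 5 lower, and smooth muscle markers 16 higher and 0 lower. The smooth muscle list summed to 3625 to 4174 CPM in the 3 h flush and 1682 to 4011 CPM in the thoracic flush. Mt2 averaged 13.7 CPM in the injured 48 h flush and 1.52 CPM in the thoracic flush, and the 3 h flush was higher than either (log2 fold change 5.83 ± 0.44 (SE), adjusted p = 9.96e-10; log2 fold change 8.97 ± 0.56 (SE), adjusted p = 1.49e-11). For the glucocorticoid list 10 of 13 were higher than in the injured 48 h flush. Vcam1 averaged 1369 and 1995 CPM in these 2 groups, both between the wall and the 3 h flush. Mitosis genes gave 0 higher and 26 lower of 28 against the injured 48 h flush, where Mki67 averaged 457 CPM. Cdkn1a averaged 55.5 CPM there (log2 fold change 2.20 ± 0.25 (SE), adjusted p = 4.90e-07 for the 3 h flush against it). Library E2A stood apart in the injured 48 h flush, with 13.4% mitochondrial counts against a group median of 3.88% and 11151 CPM of fibroblast markers against a group median of 989. Pdgfra stood at 105.36 CPM in it and had a median of 7.71 CPM over the 9 libraries. A fit without it, chosen after seeing the data, called 1291 genes higher and 1435 lower than in the injured 48 h flush.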

How the data were processed

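The authors deposited a table of raw read counts per gene symbol for 26 libraries, of which 5 flush and 3 wall libraries are compared. HISAT2 2.0.3, HTSeq, DESeq2 1.14.1 and the build GRCm38 appear in the notes on processing left by the submitters, with no role attached. Annotation, read filters and strand setting were not found in the labels, so overlapping, antisense and near-identical genes may share or lose reads. The table held 21119 symbols, 2407 of them at 0 in every library and 23 replaced by a spreadsheet date number, and 20400 matched 1 gene of GENCODE mouse release 21 for GRCm38. The authors' deposited table of the same comparison gave a log2 fold change and an adjusted p-value per gene and was used for counts of calls. Counts were tested in edgeR 4.0.16 (R 4.3.3, limma 3.58.1): quasi-likelihood F test, two-sided, TMM scaling, all 26 libraries in 1 fit with the group as the model, a filter on low counts by group (13884 genes left), Benjamini-Hochberg adjustment over all tested genes and a threshold of 0.05. Standard errors come from the F statistic. Where a group had 0 counts, the fold is given as a bound that takes 3 counts over that group. No molecular identifiers are described, so reads are not independent molecules, and the floor covers counting error only. Each library of a group is a separate mouse per the labels, and no pair agreed within sampling noise (chi-square over its degrees of freedom at least 7.78). The comparison and the 42 gene lists were chosen with earlier results of these data known, and lists are described by counts and medians without a test. Named by rule were the 10 largest changes and 10 most abundant 4-fold changes per direction (non-overlapping groups, at least 20 CPM for the first), 10 even genes within 0.25 log2, up to 5 members of smallest p per list, and members that did not pass. A few others were named for their known roles after their values were seen. Values of a few single genes are not reported here. The steps were tested on simulated data. Alternatives covered scaling, filters, DESeq2 1.42.0, depth, batch and each library left out.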

Additional observations from a re-analysis of the deposited data

Results flagged for a closer look

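Values looked at in the 5 flush libraries numbered 243 (239 of the named genes and 4 library properties). Of these, 14 (5.76%) had 1 library set apart from the other 4 by more than 0.71 of the range. That limit gives about 1 in 20 for independent normal values. CPM of single genes need not be normal, and genes can vary together, so the share cannot be compared with chance. A gene with counts in only 1 library is flagged whatever its value. Library C3B held the high value of 3 neutrophil genes, Cxcr2 at 833 CPM, Mmp8 at 782 CPM and Retnlg at 699.5 CPM. It also held the low value of Tgfbr1 at 67.0 CPM. Library C2C was high for Abcc9 at 67.8 CPM, Lum at 10.7 CPM and Ncr1, a receptor of NK cells, at 4.98 CPM, and low for Acvrl1 at 90.7 CPM. It was also high for C1qc at 2.30 CPM, where the other 4 libraries had 0 counts. Library C1A was high for Meox2, an endothelial homeobox gene, at 4.65 CPM and Nip7, of ribosome assembly, at 57.1 CPM. Library C1B was high for Lama4 at 56.2 CPM, and for Loxl1 at 0.312 CPM, where the other 4 libraries had 0 counts. Library C2A was high for Lama2 at 0.938 CPM, with 0 counts in the other 4. The wall, with 3 libraries, was not examined in this way.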

How the results depend on the processing

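No paired analysis was possible because the 3 h mice gave no wall library, so the numbers in the labels pair no samples between these groups. Against the wall, tests within experimental batch 1, 2 and 3 (2, 2 and 1 flush libraries, 1 wall library each) called 1017, 1155 and 1057 genes higher and 674, 676 and 550 lower. They rest on fewer libraries, with the spread pooled over all groups, and each lone library is assumed to vary like the rest. Every other setting stayed within 1.5 times the main counts, from 2357 to 3299 higher and from 2184 to 3340 lower. Leaving out each library in turn gave 2357 to 3164 higher and 2184 to 2591 lower. Against the injured 48 h flush, library totals as the only scaling called 553 higher and 2514 lower. Against the unwounded thoracic flush they called 2340 lower. The cause was not tested. The median log2 fold change over all tested genes against the wall became -0.13 in the fit of the 8 libraries alone, -0.12 with RLE size factors and -0.18 with no filter on low counts. Of 243 named genes, 213 were called, and 0 of them reversed under any setting run. List counts that moved by over 1.5 times include DNA replication (3 lower in the fit of 8 libraries) and mitochondrially encoded genes (up to 9 lower, and 7 without the injured 48 h library E2A, a fit chosen after seeing the data). The lower depth of the flush limits the bounds for genes at 0 there.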

Other observations

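These families and genes were chosen after their values were seen. Olfactory receptor genes, which serve smell, were low in the wall. The family summed to 803 to 1611 CPM in the 3 h flush, 35.5 to 60.6 CPM in the wall, 351 to 1857 CPM in the injured 48 h flush and 1009 to 5477 CPM in the unwounded thoracic flush. Vomeronasal receptors, of the pheromone-sensing organ, summed to 36.7 to 107 CPM in the 3 h flush, 2.11 to 4.27 CPM in the wall and 106 to 705 CPM in the thoracic flush. Since the filter on low counts kept a member that was high in any group, calls among those that passed are not read as a result. The predicted gene Gm10800 stood at 24129, 8411, 10587, 33008 and 16811 CPM in the flush and 453, 504 and 104 CPM in the wall (log2 fold change 5.72 ± 0.87 (SE), adjusted p = 9.87e-06, edgeR). It averaged 11451 CPM in the injured 48 h flush and 21080.2 CPM in the thoracic flush. Gm10801 averaged 7958 ± 4163 CPM in the flush and 152 ± 97.2 CPM in the wall. Ribosomal protein genes, as a contrast, summed to 2874 to 3438 CPM in the 3 h flush and 2778 to 2936 CPM in the wall. Depth was lower in the flush, and its part in these sums was not tested.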
